A study of Mus musculus with 40 samples.

Results

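The comparison described here asks whether the amygdala of germ-free mice that received microbes at weaning answered a social encounter with the same changes in RNA as the amygdala of mice that stayed germ-free. For each gene, the change from naïve to social interaction was taken in the colonised mice and in the germ-free mice, and the second was subtracted from the first. A positive value therefore means a more positive response in the colonised mice. Of 43629 genes in the count table, 16111 had enough reads to be tested.

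RNA came from the hand-dissected amygdala of male Swiss Webster mice aged 10 weeks. Germ-free (GF) mice were born and kept without microbes. Ex-germ-free (exGF) mice were bred in the same germ-free unit and left it at weaning, to be housed on bedding used by conventional mice, so that both groups lacked microbes from birth to weaning. Naïve mice had no test, and mice of the social interaction groups (GF-SI and exGF-SI) were killed an hour after the 3-chamber test, in which a mouse can approach an unfamiliar mouse in one side chamber or an object in the other. The 4 groups held 4 naïve GF, 12 GF-SI, 4 naïve exGF and 8 exGF-SI libraries, 28 of the 40 in the series. The remaining 12, from conventionally raised mice, entered the model for its estimate of the spread and no contrast.

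The labels give each naïve library as a pool of 2 to 3 animals, whereas each social interaction library came from a single animal. The study's sample table lists one GF library, GF-P2, as a single animal too. Pooling, handling in the test arena and social contact all separate naïve from tested mice in both arms, and their shares in either response cannot be told apart. Because bulk tissue was sequenced, fewer cells of a type and less RNA per cell cannot be told apart either.

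The 28 libraries held between 7291810 and 19961958 counts assigned to genes, with the lowest total in GF-S1. Features of single libraries touched the results. The ribosomal RNA locus Gm42418 took 14.3% of the counts in exGF-P1, 9.25% in exGF-S7 and 6.23% in exGF-P2, and no more than 1.75% in the other 25, and those 3 are called rRNA-rich here. Ttr, the transthyretin gene of the choroid plexus, lay at or above 625 CPM (counts scaled to library size) in exGF-S4, exGF-S7, exGF-S9, GF-S8 and GF-S12 and at no more than 67.2 CPM elsewhere. Markers of the neighbouring striatum summed to 698 CPM in GF-P1 and to no more than 429 CPM in any other library.

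Social encounters drive a wave of transcription in the amygdala. Neuronal firing opens calcium channels and activates kinases of the MAPK family, which switch on immediate early genes such as Fos and Nr4a3 within minutes, and their protein products and feedback inhibitors then set how long the wave lasts. RNA-binding proteins that splice the new transcripts, and chaperones that fold the new proteins, are known to follow the same signals. Microbes act on the brain through metabolites, the vagus nerve and immune signals, and the period around weaning is when the gut community of a mouse normally settles.

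No gene passed the threshold for a different response in the 2 arms. In edgeR's quasi-likelihood test, with Benjamini-Hochberg adjustment over all 16111 genes, 0 genes (0%) had an adjusted p under 0.1, and the smallest adjusted p was 0.154, shared by Hexim1, Sh3bp5, Banp and Fam13c. At an unadjusted p under 0.05, 1839 genes (11.4%) were counted, 904 with a positive difference (5.61%) and 935 with a negative one (5.8%). DESeq2 called 43 genes, 16 positive and 27 negative, among the 11134 it gave an adjusted p (0.386%). The voom method of limma with sample quality weights called 84, 36 positive and 48 negative (0.521%), of which 39 were also called by DESeq2. All 88 genes called by either tool had the same sign and an unadjusted p under 0.05 in edgeR. A fit to the 28 GF and exGF libraries alone called 0 genes, with a smallest adjusted p of 0.103.

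The precision of the difference limits what a missing call says. Its 95% interval had a median half-width of 0.384 on the log2 scale, and 10151 genes (63%) had a half-width of at most 0.5. Among the 9063 genes with a mean of at least 10 CPM the median half-width was 0.279. Leaving out one library at a time gave 0 calls in 23 of 28 cases. The exceptions were 20 calls without exGF-S5, 14 without exGF-S7, 9 without GF-S1, 7 without exGF-P3 and 5 without GF-S4.

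The responses that enter the difference were themselves large. In GF mice 1422 genes rose with social interaction (8.83%) and 1081 fell (6.71%), and in exGF mice 843 rose (5.23%) and 558 fell (3.46%), all at an adjusted p under 0.1. Together these were 15.5% of the genes in GF and 8.7% in exGF mice. The count in GF mice dropped to 1069 without GF-P3, and that in exGF mice to 533 without exGF-P2 and to 491 without the rRNA-rich libraries. These counts come from groups of unequal size, 16 libraries against 12. They do not show that the responses differed, which only the difference itself tests.

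The responses share no library, so they can be set side by side. Of the genes that rose in GF mice, 386 also rose in exGF mice, which is 27.1% of the first list and 45.8% of the second. Those that fell in both numbered 143, or 13.2% and 25.6% of the lists. Direction was shared more widely than calls, since 1232 of the 1422 genes that rose in GF mice had a positive value in exGF mice. Their median response was 0.33 in GF and 0.16 in exGF mice, on the log2 scale. Genes chosen for rising in exGF mice had medians of 0.33 there and 0.20 in GF mice, so that the arm which chose the genes had the larger median either way. Across all genes tested, the log2 responses had a Pearson r of 0.32 and a Spearman rho of 0.31, as a description over genes that share depth and library composition.

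**Figure D1:**
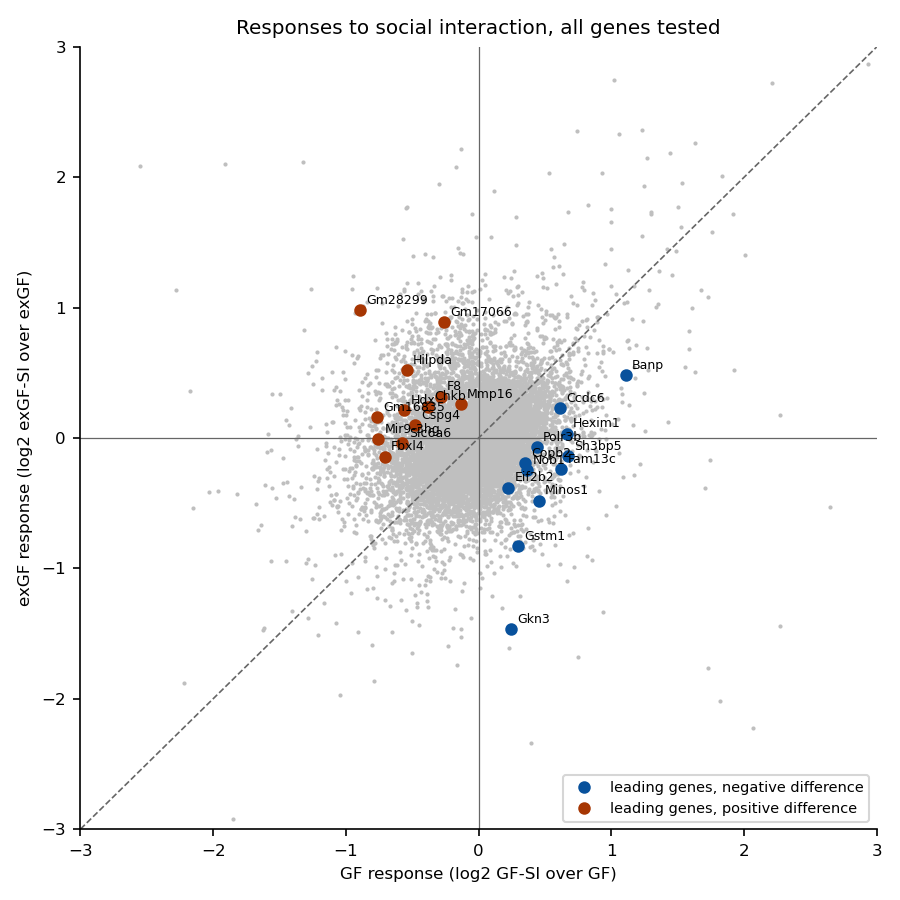
Each grey point is 1 of the 16111 genes tested, with its log2 response in GF mice (horizontal axis) and in exGF mice (vertical axis), the dashed line marking equal responses and 11 genes lying outside the axes. The 12 leading genes with a negative difference (blue) sit below the dashed line and the 12 with a positive difference (red) above it.

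Only 3 genes were called in opposite directions in the arms, a count named here after its values were seen. Minos1, which builds the cristae junctions of mitochondria, rose in GF mice by 0.46 (log2, adjusted p = 0.052) and fell in exGF mice by 0.48 (adjusted p = 0.067). F8, the gene of coagulation factor VIII, had values of -0.29 in GF and 0.32 in exGF mice (adjusted p = 0.0553 and 0.0779). The processed pseudogene Gm28299 had values of -0.90 and 0.98 (adjusted p = 0.0466 and 0.0961), from a mean of 1.74 CPM, and its reads may be shared with related copies.

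The 24 genes described next are the 12 of smallest p in each direction with a mean of at least 1 CPM. None passed edgeR's threshold, their adjusted p running from 0.154 to 0.197. DESeq2 called 20 of them and voom all 24, and their sign was the same in each of 36 alternative fits. Because they were chosen by this contrast, their intervals are a description and tend to overstate the size.

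Hexim1 encodes a nuclear protein that holds the transcription elongation factor P-TEFb inactive, and lies on chromosome 11 from 103116231 to 103119725 (GRCm38, plus strand). Its level was 48.2, 53.3, 41.1 and 56.3 CPM in the naïve GF libraries and 65.6, 67.1, 61.8 and 65.7 CPM in the naïve exGF libraries. After social interaction it ranged from 65.4 to 89.6 CPM in GF-SI (median 81.7) and from 57.1 to 76.1 CPM in exGF-SI (median 66.4). Every GF-SI library lay above every naïve GF library, every naïve exGF library lay above every naïve GF library, and the exGF groups overlapped. Hexim1 rose in GF mice by 0.66 ± 0.09 (log2, SE, adjusted p = 7.15e-06) and had a value of 0.03 ± 0.09 in exGF mice (adjusted p = 0.889). The difference was -0.63, with a 95% interval from -0.89 to -0.37, and -0.61 without the rRNA-rich libraries.

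Sh3bp5, an adaptor that binds the kinase JNK and activates the Rab11 GTPase, lies on chromosome 14 from 31359880 to 31436078 on the minus strand. The naïve GF libraries held 33.8, 26.7, 30.8 and 36.7 CPM, and the naïve exGF libraries 49.7, 48.6, 41.5 and 44.8 CPM. Its range was 43.3 to 62.9 CPM in GF-SI (median 49.4) and 35.5 to 54.8 CPM in exGF-SI (median 40.1). The naïve GF libraries lay below every GF-SI and every naïve exGF library and overlapped with exGF-SI. The gene rose in GF mice by 0.67 ± 0.12 (adjusted p = 0.000304) and gave -0.14 ± 0.12 in exGF mice (adjusted p = 0.574), a difference of -0.81 (95% interval -1.15 to -0.47). Its exons overlap those of Capn7 on the other strand, and the reads were counted without strand.

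Banp encodes a nuclear protein that binds CpG-containing promoters, and lies on chromosome 8 from 121949750 to 122029258 on the plus strand. Unlike the genes above it rose in both arms. Its level was 14.7, 15.2, 15.3 and 12.6 CPM in naïve GF and 27.8, 23.8, 22.7 and 21.3 CPM in naïve exGF libraries, with 25.3 to 36.3 CPM in GF-SI (median 31) and 30.6 to 37.7 CPM in exGF-SI (median 33.3). Within each arm the tested libraries lay above the naïve ones without overlap, and so did naïve exGF above naïve GF. The rise was 1.11 ± 0.10 in GF mice (adjusted p = 9.36e-10) and 0.48 ± 0.10 in exGF mice (adjusted p = 0.00296), and the difference was -0.63 (95% interval -0.90 to -0.35). Banp shares exonic sequence with Gm27011 on the opposite strand.

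Fam13c showed how the naïve exGF libraries could differ among themselves. They held 60.6 and 59.8 CPM in exGF-P1 and exGF-P2, the rRNA-rich pair, and 41.9 and 40.7 CPM in exGF-P3 and exGF-P4, against 34.4, 33.8, 30.7 and 32.5 CPM in naïve GF. All 4 naïve exGF values were above all naïve GF values, but the rRNA-rich pair stood higher. GF-SI ranged from 40.6 to 60.7 CPM (median 50.2) and exGF-SI from 34.1 to 56.5 CPM (median 41.7). The difference of -0.86 became -0.65 without the rRNA-rich libraries.

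Among the other 8 leading genes with a negative difference, Gstm1, a glutathione S-transferase, fell in exGF mice (-0.83 ± 0.18, adjusted p = 0.00634) and gave 0.30 ± 0.18 in GF mice (adjusted p = 0.313). Its naïve exGF values were 88.5, 78.1, 48.0 and 57.9 CPM, once more highest in exGF-P1 and exGF-P2. Eif2b2, a subunit of the exchange factor that recharges the initiation factor eIF2, fell in exGF mice by 0.38 ± 0.11 (adjusted p = 0.0359). Copb2, of the coat of Golgi-to-ER vesicles, rose in GF mice (0.35 ± 0.10, adjusted p = 0.0152), as did Nob1, an endonuclease that matures ribosomal RNA (0.36 ± 0.10, adjusted p = 0.0214), Polr3b, a core subunit of RNA polymerase III (0.44 ± 0.08, adjusted p = 0.000612) and Ccdc6 (0.62 ± 0.07, adjusted p = 1.36e-07). Of these 4 genes only Ccdc6 was called in exGF mice, where it rose by 0.23 ± 0.07 (adjusted p = 0.0483).

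Gkn3, a gastrokine gene that the mouse brain uses in arterial endothelium, had the most negative difference of the 24. Its naïve exGF libraries held 1.43, 3.01, 1.46 and 3.85 CPM, all above the naïve GF libraries at 1.04, 0.944, 0.657 and 0.479 CPM. After social interaction the ranges were 0.53 to 1.33 CPM in GF-SI (median 0.83) and 0.673 to 1.18 CPM in exGF-SI (median 0.907). The gene fell in exGF mice by 1.46 ± 0.27 (adjusted p = 0.00174) and gave 0.25 ± 0.30 in GF mice, a difference of -1.71 (95% interval -2.53 to -0.89). The mean level was 1.11 CPM.

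**Figure D2:**
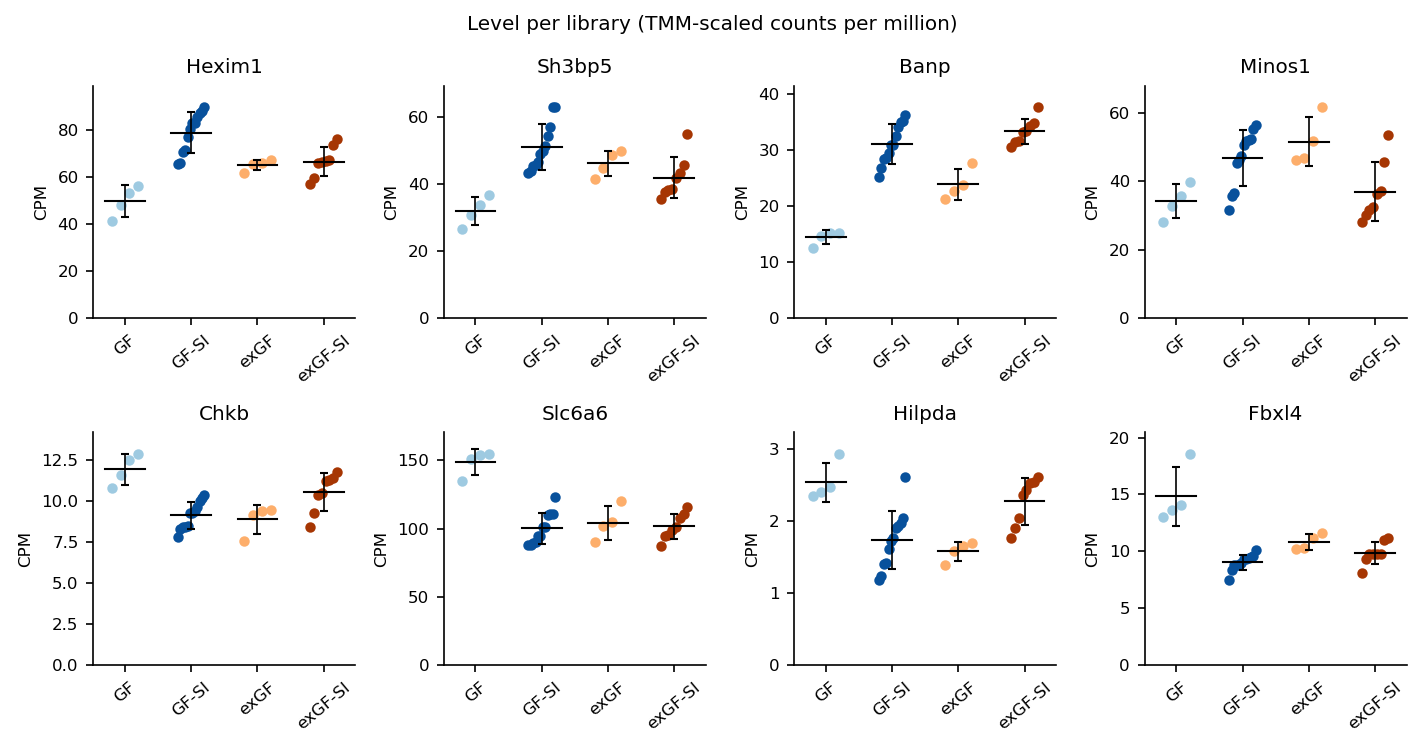
Levels of 8 leading genes in each of the 28 libraries, in TMM-scaled CPM (each vertical axis starts at 0), by group, with the mean (line) and SD (bar). In Hexim1 and Banp the 4 naïve GF libraries lie below all other libraries, in Slc6a6 and Fbxl4 above all others, and the GF-SI and exGF-SI libraries overlap in all 8 genes.

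Among genes with a positive difference, Slc6a6, the transporter that brings taurine into cells, was the most abundant. It lies on chromosome 6 from 91684053 to 91759066 on the plus strand. Naïve GF libraries held 151, 135, 155 and 154 CPM, above the 89.9, 105, 102 and 120 CPM of naïve exGF. The tested groups had nearly the same span, 87.7 to 123 CPM in GF-SI (median 97.7) and 87.5 to 116 CPM in exGF-SI (median 100). Slc6a6 fell in GF mice by 0.57 ± 0.08 (adjusted p = 1.42e-05) and gave -0.04 ± 0.09 in exGF mice, for a difference of 0.53 (95% interval 0.28 to 0.78).

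Fbxl4, a mitochondrial F-box protein needed to keep mitochondrial DNA, followed the same course at a lower level. Its values were 13.6, 14.1, 18.6 and 13 CPM in naïve GF and 10.2, 11.2, 10.3 and 11.6 CPM in naïve exGF libraries, with 7.48 to 10.1 CPM in GF-SI (median 9.18) and 8.11 to 11.2 CPM in exGF-SI (median 9.75). The naïve GF libraries were above all others. It fell in GF mice by 0.71 ± 0.09 (adjusted p = 1.42e-06) and gave -0.14 ± 0.10 in exGF mice (adjusted p = 0.443). Cspg4, the NG2 proteoglycan of oligodendrocyte precursors and pericytes, fell in GF mice by 0.48 ± 0.10 (adjusted p = 0.000969) and gave 0.10 ± 0.11 in exGF mice. It does not stand for its cell type. Of 7 oligodendrocyte precursor markers tested, Cspg4 was the 1 with a positive difference and 6 were negative, with a median of -0.20. Mir9-3hg, the host transcript of a neural microRNA, fell in GF mice by 0.76 ± 0.12 (adjusted p = 3.99e-05) against -0.01 ± 0.13 in exGF mice.

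Chkb, a choline kinase of phosphatidylcholine synthesis, and Hilpda, a lipid droplet protein induced by hypoxia, had values of opposite sign in the arms. Chkb was at 10.8, 11.6, 12.9 and 12.5 CPM in naïve GF and 7.59, 9.37, 9.47 and 9.18 CPM in naïve exGF libraries, at 7.82 to 10.4 CPM in GF-SI (median 9.28) and at 8.42 to 11.8 CPM in exGF-SI (median 10.9). It fell in GF mice by 0.38 ± 0.10 (adjusted p = 0.00732), and its value in exGF mice was 0.24 ± 0.11 (adjusted p = 0.187). Exons of C730034F03Rik and Gm44502 overlap it. Hilpda was at 2.41, 2.47, 2.35 and 2.94 CPM in naïve GF against 1.65, 1.39, 1.69 and 1.59 CPM in naïve exGF libraries, at 1.18 to 2.62 CPM in GF-SI (median 1.75) and at 1.77 to 2.61 CPM in exGF-SI (median 2.4). The exGF groups did not overlap, nor did the naïve groups. It fell in GF mice by 0.54 ± 0.17 (adjusted p = 0.0289) and gave 0.52 ± 0.19 in exGF mice, just short of the threshold (adjusted p = 0.104).

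The remaining positive genes were Hdx, a homeobox gene that fell in GF mice (-0.56 ± 0.12, adjusted p = 0.00206), Mmp16, a membrane-bound metalloproteinase that rose in exGF mice (0.26 ± 0.07, adjusted p = 0.0288), the noncoding Gm16835 and Gm17066, and F8 and Gm28299 described above. Gm17066 rose in exGF mice by 0.89 ± 0.20 (adjusted p = 0.00781), but lies on the strand of Rbm26 and shares exonic sequence with it, and its difference of 1.15 became 0.68 after correction for GC content and length. Of the 12 negative genes 9 were called in GF and 6 in exGF mice, and of the 12 positive genes 10 and 4.

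**Figure D3:**
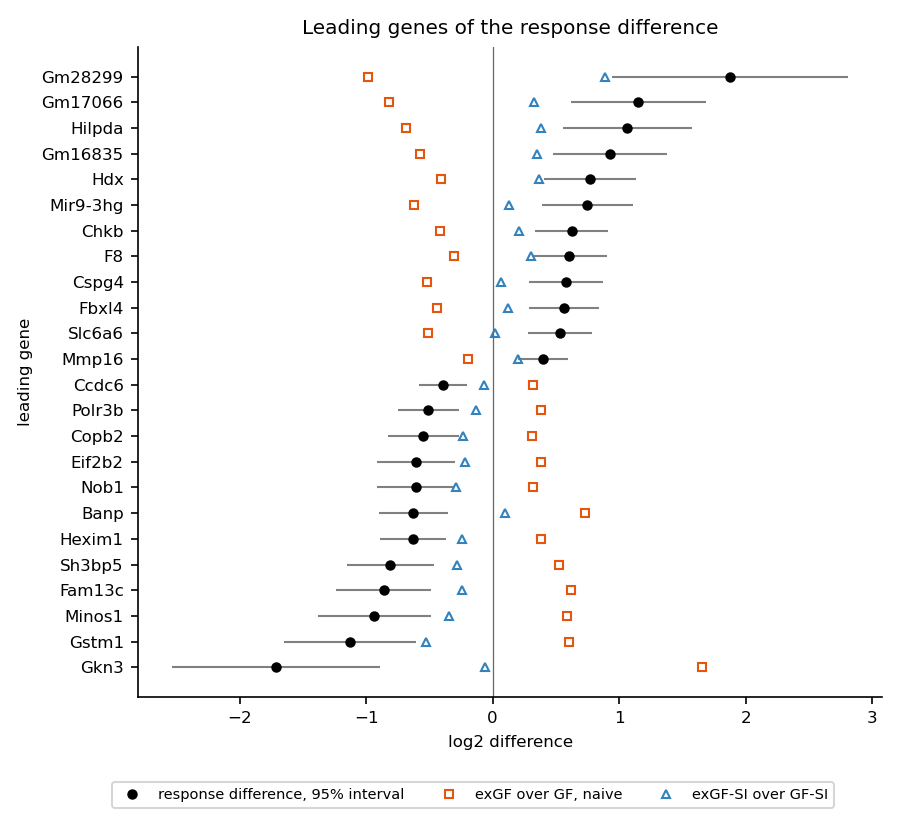
Response difference of the 24 leading genes (black, log2, bars are 95% intervals), with the log2 ratio of exGF to GF in naïve mice (orange squares) and after social interaction (blue triangles), whose gap is the difference. The squares lie farther from 0 than the triangles in 23 of the 24 genes.

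The same difference can be read across arms, as the gap between exGF and GF after the test minus the gap before it. In 11 of the 12 negative genes every naïve exGF library lay above every naïve GF library, and in 9 of the 12 positive genes every one lay below. Over all genes tested these arrangements occurred in 2.48% and 2.57%. Within GF mice, 6 negative genes lay wholly higher after the test (1.9% of all genes) and 7 positive genes wholly lower (1.17%). Within exGF mice, 1 negative gene (Banp) and 3 positive genes lay wholly higher (2.75%) and 1 negative gene (Gkn3) wholly lower (1.58%). The same libraries chose the 24 genes, so nothing is read from the contrast in shares. After social interaction the exGF-SI and GF-SI ranges overlapped in all 24, and full separation in either direction occurred in 0.00621% of all genes. Among the 904 genes with a positive difference at p under 0.05, 637 had a larger gap between the naïve groups than between the tested groups, and among the 935 negative ones 678 did. The naïve groups had 4 libraries each, fewer than the tested groups, so the model gives their gaps the larger error. It takes a common spread per gene for pools and for single animals, so it does not allow for the pooling.

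Between the naïve groups 3 genes passed (0.0186%), all of them leading genes, namely Banp and Gkn3 higher (0.0124%) and Slc6a6 lower (0.00621%) in exGF. Leaving out one library gave 1 to 8 such calls, the most without exGF-P4, and 0 genes passed without the rRNA-rich libraries, where 486 had an unadjusted p under 0.05 in edgeR. Between exGF-SI and GF-SI, with 20 libraries, 135 genes passed (0.838%), 64 higher (0.397%) and 71 lower (0.441%) in exGF-SI. Of the 135, 87 also had a p under 0.05 for the difference, against 11.4% of all genes. Both gaps are parts of the difference, so this overlap, and that of the naïve calls with the leading genes, is built in. Calls between exGF-SI and GF-SI over single omissions ranged from 7, without exGF-S10, to 383, without exGF-S5. Mid1, a microtubule-associated ubiquitin ligase, had the smallest p there. It was higher in exGF-SI by 2.43 (log2, adjusted p = 5.05e-06), having fallen in GF mice by 1.5 (adjusted p = 0.00544) against 0.34 in exGF mice (adjusted p = 0.663). Mid1 was picked out after its values were seen.

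Splicing factors, the proteins that decide which exons a transcript keeps, are described here by family. None of their members passed the threshold in edgeR, and differences between families were not tested. The hnRNP proteins, which coat new transcripts and often block exons, had a median difference of -0.23 over the 30 members, all tested, against 0.01 over all genes. At p under 0.05, 7 of 30 (23.3%) were negative, against 5.8% of all genes, and 0 positive. In GF mice 11 hnRNP genes rose (8.83% of all genes did) and 0 fell, and in exGF mice 1 rose (5.23%) and 1 fell (3.46%). Omitting single libraries kept the list's median between -0.30 and -0.18, and it was -0.16 without the rRNA-rich libraries.

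Hnrnpc, which binds uridine-rich tracts of nascent RNA, held 123, 119, 108 and 119 CPM in naïve GF and 151, 134, 130 and 152 CPM in naïve exGF libraries. In GF-SI it ranged from 148 to 187 CPM (median 170) and in exGF-SI from 134 to 182 CPM (median 160), so that naïve GF stood below all other groups. It rose in GF mice by 0.50 (adjusted p = 0.000588) and gave 0.13 in exGF mice (adjusted p = 0.494), with a difference of -0.37 (95% interval -0.65 to -0.10). Hnrnph2 rose in GF mice by 0.59 (adjusted p = 0.0189) and had -0.04 in exGF mice. Pcbp1, a poly(C)-binding protein, gave 0.27 in GF mice (adjusted p = 0.257) and fell in exGF mice by 0.45 (adjusted p = 0.0768). Pcbp1 shares exonic sequence with 1600020E01Rik on the other strand. Other hnRNP genes that rose in GF mice were Hnrnph1 (0.85, adjusted p = 0.00676) and Hnrnpm (0.82, adjusted p = 0.0104), with 0.14 and 0.31 in exGF mice.

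The SR proteins, which mostly favour exon inclusion and often oppose the hnRNPs, had a median difference of 0.04 over 13 members, which without exGF-P3 was 0.11, without exGF-P4 -0.01 and without the rRNA-rich libraries -0.005. Of these 3 were positive at p under 0.05 (5.61% of all genes) and 0 negative, while 5 rose in GF mice (8.83%) and 6 in exGF mice (5.23%). Srsf1, the prototype of the family, held 14.5, 12.4, 15.1 and 15.2 CPM in naïve GF and 11.8, 10.5, 12.0 and 12.0 CPM in naïve exGF libraries, 12.8 to 18.9 CPM in GF-SI (median 16) and 15 to 21.3 CPM in exGF-SI (median 16.7). Naïve exGF was the lowest group and overlapped with none of the other 3. Srsf1 rose in exGF mice by 0.59 (adjusted p = 0.00189) and gave 0.15 in GF mice (adjusted p = 0.387), a difference of 0.44 (95% interval 0.14 to 0.74). Tra2a, a partner of SR proteins, rose in both arms, by 0.94 in GF mice (adjusted p = 3.58e-07) and 0.70 in exGF mice (adjusted p = 0.000231).

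In the core spliceosome, 93 genes tested, the median difference was -0.12, with 13 members negative and 6 positive at p under 0.05, or 20.4% against 11.4% of all genes. In GF mice 25 rose and 3 fell (8.83% and 6.71% of all genes), and in exGF mice 10 rose and 5 fell (5.23% and 3.46%). Snrpd3, an Sm protein of the snRNP core, had a difference of -0.65 (adjusted p = 0.232), or -0.48 without the rRNA-rich libraries. Acin1, a nuclear splicing cofactor, rose in both arms, by 0.66 and 0.32 (adjusted p = 9.04e-06 and 0.0451). The exon junction complex, which marks spliced messages, had a median of -0.13 over 13 genes, -0.07 without exGF-P3 and -0.22 without the rRNA-rich libraries. Its core member Rbm8a rose in GF mice by 0.72 (adjusted p = 0.00334) against 0.15 in exGF mice.

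Cirbp and Rbm3, RNA-binding proteins that cells make in the cold and lose in the warm, both fell in GF mice and passed no threshold in exGF mice. Cirbp held 39.9, 42.6, 61.0 and 45.8 CPM in naïve GF, 18.3 to 36.1 CPM in GF-SI (median 26.3), 29.9, 40.3, 41.4 and 36.1 CPM in naïve exGF and 28.5 to 36.5 CPM in exGF-SI (median 31.4). The GF groups did not overlap and the exGF groups did. It fell in GF mice by 0.80 (adjusted p = 3.51e-05) and gave -0.23 in exGF mice (adjusted p = 0.363), a difference of 0.58 (95% interval 0.20 to 0.95). Rbm3 fell in GF mice by 0.59 (adjusted p = 0.027) and gave 0.15 in exGF mice (adjusted p = 0.729), with a difference of 0.74 (95% interval 0.20 to 1.28). The libraries of Rbm3 overlapped in every pair of groups, and an antisense gene, Rbm3os, shares its exons.

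**Figure D4:**
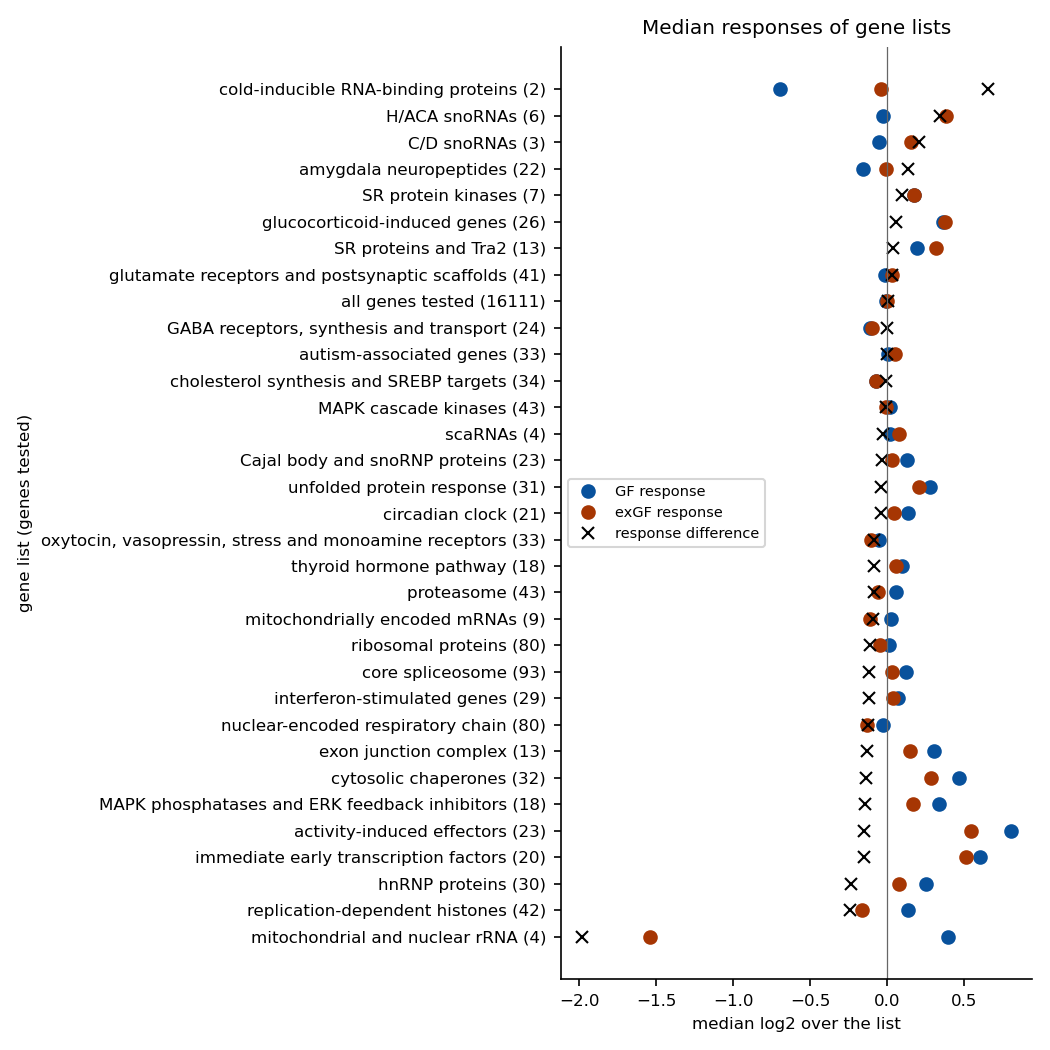
Median log2 response in GF mice (blue) and in exGF mice (red), and median response difference (cross), for each gene list with at least 2 genes tested, with the number tested in brackets. Chaperones and activity-induced genes lie to the right of 0 in both arms, the hnRNP proteins and the exon junction complex lie farther right in GF mice, and the cold-inducible pair lies to the left in GF mice.

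The cytosolic chaperones, heat shock proteins and their partners, rose widely in both arms. Of 32 tested, 25 rose in GF mice (the background is 8.83% of all genes) and 15 in exGF mice (background 5.23%), and 0 fell in either. Their median was 0.47 in GF and 0.28 in exGF mice, and the median difference was -0.14 (-0.17 without GF-P4 and -0.09 without exGF-S4). At p under 0.05, 5 chaperones were negative and 0 positive, where 5.8% and 5.61% of all genes were. Chordc1, a partner of HSP90, rose in both arms by 0.89 and 0.65 (adjusted p = 4.83e-07 and 0.000446). Dnajb5 and Stip1, co-chaperones of HSP70 and HSP90, rose in GF mice by 0.91 (adjusted p = 7.11e-05) and 0.47 (adjusted p = 0.000749), with 0.33 and 0.14 in exGF mice. Genes of the unfolded protein response, which meets misfolded protein in the endoplasmic reticulum, had a median difference of -0.04, which was -0.09 without GF-P1 and -0.01 without GF-S9. Among the 31 tested, 18 rose and 0 fell in GF mice, where 8.83% and 6.71% of all genes did. In exGF mice 13 rose and 1 fell, where 5.23% and 3.46% of all genes did. Hsp90b1 and Pdia6, a chaperone and a disulphide isomerase of that compartment, rose in both arms, by 0.63 and 0.58 in GF mice and by 0.39 and 0.42 in exGF mice (adjusted p from 6e-05 to 0.0345).

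Immediate early transcription factors, the direct readout of neuronal activity, gave a median difference of -0.15 over 20 genes, moving to -0.35 without exGF-P4 and to -0.00 without exGF-P1. Without the rRNA-rich libraries exGF-P1, exGF-P2 and exGF-S7 the median turned to 0.25. In GF mice 10 rose (8.83% of all genes) and 0 fell, and in exGF mice 7 rose (5.23%) and 1 fell (3.46%). Nr4a3, an orphan nuclear receptor, held 18.8, 26.5, 23.6 and 32.1 CPM in naïve GF and 57.4, 60.8, 36.2 and 31.1 CPM in naïve exGF libraries, 64.0 to 86.6 CPM in GF-SI (median 76.2) and 58.1 to 111 CPM in exGF-SI (median 79.1). The GF groups did not overlap, and in naïve exGF the high pair was again exGF-P1 and exGF-P2. It rose in both arms, by 1.59 in GF mice (adjusted p = 1.2e-07) and by 0.82 in exGF mice (adjusted p = 0.00354), with a difference of -0.77 (95% interval -1.23 to -0.31, adjusted p = 0.232) that shrank to -0.28 without the rRNA-rich libraries. Fosb, the partner of Jun proteins, rose by 1.53 and 1.96 (adjusted p = 2.5e-05 and 8.8e-06), and the difference of 0.42 had an interval from -0.22 to 1.07. Fosl2 rose by 1.35 and 1.03, with a difference of -0.32 (95% interval -0.81 to 0.17). Ier2 fell in exGF mice by 1.08 (adjusted p = 0.036) against 0.02 in GF mice. The Ier2 difference of -1.1 became -0.76 without the rRNA-rich libraries. Maff, at 0 to 2.86 CPM, had a difference of 1.78 (95% interval 0.298 to 3.25), and of 1.72 without those libraries. At p under 0.05, 1 of the 20 genes was positive and 2 were negative, where 5.61% and 5.8% of all genes were.

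The effectors that these factors switch on had a median difference of -0.15, which was -0.24 without exGF-S8, 0.03 without exGF-P1 and 0.18 without the rRNA-rich libraries. Of 23 genes, 14 rose and 1 fell in GF mice (8.83% and 6.71% of all genes), and 10 rose (5.23%) and 0 fell in exGF mice. Bdnf, a growth factor for synapses, was at 30.4, 35.1, 36.7 and 35.1 CPM in naïve GF and 42.9, 43.6, 35.3 and 33.3 CPM in naïve exGF libraries. It ranged from 51.3 to 95.7 CPM in GF-SI (median 77.9) and from 48.2 to 117 CPM in exGF-SI (median 70.2), above the naïve libraries in both arms. The rises of 1.16 and 0.92 (adjusted p = 2.32e-06 and 0.000543) differed by -0.24, with a 95% interval from -0.66 to 0.18, and by -0.01 without the rRNA-rich libraries. Baz1a, of a chromatin remodelling complex, and Homer1, a postsynaptic scaffold, rose by 1.49 and 1.00 in GF mice and by 1.43 and 1.17 in exGF mice, with intervals of the difference from -0.91 to 0.80 and from -0.44 to 0.78. Trib1, a pseudokinase, rose in GF mice by 0.96 (adjusted p = 0.0295) and gave -0.01 in exGF mice. Its naïve exGF values of 16.1, 12.0, 4.54 and 5.10 CPM again split by pair, and its difference of -0.97 became -0.08 without the rRNA-rich libraries.

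Feedback inhibitors of MAPK signalling leaned to the negative side, with 15 of 18 negative and a median difference of -0.14, compared with 7907 negative of 16111 over all genes. The median was -0.24 without GF-P3, -0.04 without exGF-P2 and 0.03 without the rRNA-rich libraries. At p under 0.05, 2 were negative (5.8% of all genes) and 0 positive. Spred2, which blocks Raf activation, was at 41.6, 37.3, 32.4 and 36.6 CPM in naïve GF, below the 65.8, 59.6, 45.4 and 45.9 CPM of naïve exGF. GF-SI ranged from 39.2 to 71.4 CPM (median 58.8) and exGF-SI from 53.9 to 69.5 CPM (median 62.6). It rose in GF mice by 0.68 (adjusted p = 0.000341) and gave 0.19 in exGF mice (adjusted p = 0.426). Spry2, of the Sprouty family, rose in GF mice by 0.69 (adjusted p = 0.00176) against 0.16 in exGF mice. The differences of -0.49 for Spred2 and -0.54 for Spry2 became -0.29 and -0.31 without the rRNA-rich libraries. Dusp4, a phosphatase of MAP kinases, rose in both arms, by 1.12 and 0.74 (adjusted p = 3.99e-05 and 0.0114). The kinases of the cascade had a median difference of -0.01 over 43 genes (-0.02 without exGF-P4 and 0.02 without exGF-S5), with 1 positive and 1 negative at p under 0.05.

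In the circadian clock, Bhlhe40, a repressor that also answers to activity, rose in GF mice by 0.91 (adjusted p = 0.00113) and gave -0.00 in exGF mice (adjusted p = 0.994). Its naïve exGF values were 85.5, 90.2, 61.3 and 58.7 CPM, highest in exGF-P1 and exGF-P2. The Bhlhe40 difference of -0.91 became -0.64 without the rRNA-rich libraries. Per2 rose in both arms, by 1.13 and 0.69 (adjusted p = 3.49e-07 and 0.00183). The 21 clock genes had a median difference of -0.04, which was -0.11 without GF-P4, 0.01 without exGF-P2 and 0.01 without the rRNA-rich libraries. Glucocorticoid-induced genes, which report stress hormone in the brain, had medians of 0.37 in both arms, with 8 of 26 rising and 0 falling in each, where 8.83% of all genes rose in GF and 5.23% in exGF mice. Their median difference was 0.06, moving to -0.09 without GF-P4 and to 0.10 without GF-P2. Lcn2, the lipocalin of acute inflammation, rose in GF mice by 3.90 (adjusted p = 0.0175) against -0.21 in exGF mice. It was at 0.13, 0, 0.0939 and 0.12 CPM in naïve GF libraries and reached 5.24 CPM in GF-SI, where the median was 0.448 CPM.

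Genes of energy supply and protein synthesis leaned negative with small values. The nuclear-encoded respiratory chain had a median difference of -0.12 over 80 genes, 60 of them negative, and -0.06 without exGF-P2. At p under 0.05, 10 were negative and 0 positive, or 12.5% against 11.4% of all genes. In GF mice 6 rose and 6 fell, where 8.83% and 6.71% of all genes did, and in exGF mice 0 rose and 14 fell (3.46% of all genes). Cox6a1, a subunit of cytochrome c oxidase, fell in exGF mice by 0.88 (adjusted p = 0.0286) and gave -0.01 in GF mice. Ndufa1 and Sdha, of complexes I and II, rose in GF mice by 0.45 and 0.38 (adjusted p = 0.0461 and 0.0436), with -0.21 and -0.14 in exGF mice. Ribosomal proteins had a median of -0.11 over 80 genes, with 14 negative and 4 positive at p under 0.05 (22.5% against 11.4% of all genes). Rps29 fell in exGF mice by 0.90 (adjusted p = 0.000529) against -0.13 in GF mice, and ribosomal protein genes have many processed copies that can share reads. The proteasome gave a median of -0.09 (-0.06 without exGF-P2), with 7 of 43 negative and 1 positive at p under 0.05, or 18.6% against 11.4% of all genes. Psma6, of its catalytic core, rose in GF mice by 0.41 (adjusted p = 0.0456) and gave -0.21 in exGF mice.

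Replication-dependent histones, whose messages lack a poly(A) tail and so depend on ribodepleted libraries, had a median difference of -0.24 over 42 genes, with 8 negative and 2 positive at p under 0.05, where 5.8% and 5.61% of all genes were. Hist1h4h fell in exGF mice by 0.78 (adjusted p = 0.0421) against 0.20 in GF mice, and Hist1h3d rose in GF mice by 1.09 (adjusted p = 0.018) against -0.30 in exGF mice. These genes are near-identical copies among which reads cannot be divided with certainty. The 4 mitochondrial and nuclear ribosomal RNA genes had a median of -1.98, -3.25 without exGF-S7 and -0.87 without the rRNA-rich libraries. Of mt-Rnr1, exGF-P1, exGF-P2 and exGF-S7 held 68200, 45300 and 37200 CPM, and the highest value in any other library was 14400 CPM. The part of ribosomal RNA content in the list values was not tested.

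Receptors of social and stress signals held no member past even the unadjusted threshold. Over 33 receptors for oxytocin, vasopressin, stress peptides and monoamines, 0 had a p under 0.05 and the median difference was -0.08 (-0.13 without GF-P1 and -0.01 without exGF-P3). In GF mice 1 rose, and in exGF mice 0. The GABA, glutamate and autism lists had medians near 0 that changed sign with the library left out. The 24 genes of GABA signalling had a median of -0.00, with 1 negative and 0 positive at p under 0.05, and the 41 glutamate receptor and scaffold genes one of 0.03, with 2 in each direction. Camk2a, the kinase of synaptic plasticity, fell in exGF mice by 0.51 (adjusted p = 0.0349) and gave 0.21 in GF mice (adjusted p = 0.385). Its difference of -0.72 became -0.62 without the rRNA-rich libraries. The 22 amygdala neuropeptides had a median difference of 0.13, with 12 positive and 10 negative. That median was -0.175 without GF-P1, 0.234 without exGF-P3 and -0.0005 without the rRNA-rich libraries. At p under 0.05, 1 was positive and 2 negative (5.61% and 5.8% of all genes). Nmb, scarce at 1.22 CPM in its highest library, GF-P3, had a difference of 1.08 (95% interval 0.115 to 2.05). Sst fell in exGF mice by 0.54 (adjusted p = 0.0267) against 0.01 in GF mice. Igf1 rose in GF mice by 0.59 (adjusted p = 0.000588) against 0.24 in exGF mice, a difference of -0.36 that became -0.17 without the rRNA-rich libraries. The autism-associated genes had a median of -0.00 over 33 tested, from -0.03 without GF-P1 to 0.04 without GF-P4, as against -0.06 without exGF-P1 to 0.06 without exGF-P3 for GABA signalling and -0.01 without GF-P1 to 0.04 without exGF-S10 for the glutamate list. Adnp, a chromatin regulator, had a difference of -1.16 (adjusted p = 0.232), from 0.57 in GF and -0.60 in exGF mice, neither of which passed, and the difference became -0.63 without the rRNA-rich libraries. Its reads may include those of Gm20716, on the same strand.

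Of the genes that the study itself discusses, Fos rose in exGF mice by 1.18 (adjusted p = 0.0384) and gave 0.58 in GF mice (adjusted p = 0.25). Its difference of 0.60 had a 95% interval from -0.32 to 1.52. Without the rRNA-rich libraries it was 1.29. Arc and Ier5 gave differences of -0.34 and -0.35 with intervals of -1.60 to 0.92 and -1.30 to 0.59, which turned to 0.60 and 0.27 without those libraries, and Egr3 one of 0.02 (-0.80 to 0.83). Dnajb6 had -0.17 (-0.49 to 0.15). The complement genes of microglia, C1qa, C1qb and C1qc, lay at 0.03, -0.18 and 0.08, with intervals no wider than -0.61 to 0.57. For D030028A08Rik, which overlaps 3 genes on the other strand, the interval of -1.25 to 1.93 leaves the difference unresolved.

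Marker lists of cell types are described next, and their part in the difference was not tested. Of 12 endothelial and pericyte markers, 11 had a negative difference, 5 of them at p under 0.05 (5.8% of all genes), with a median of -0.20 that was -0.31 without exGF-P3. Cldn5, the tight junction protein of the blood-brain barrier, fell in exGF mice by 0.64 (adjusted p = 0.0019) against -0.15 in GF mice, and Flt1 rose in GF mice by 0.53 (adjusted p = 0.00286) against 0.03. The summed level of these markers overlapped between all groups, at 338 to 391 CPM in naïve GF, 312 to 429 in GF-SI, 300 to 407 in naïve exGF and 291 to 396 in exGF-SI. Summed marker levels were scaled to total counts, ribosomal RNA included, whereas the log2 values rest on TMM scaling. Sums and differences are therefore on unlike scales. The part of endothelial and pericyte markers in the values of Gkn3 and Slc6a6 was not tested. Of 12 astrocyte markers, 9 had a negative difference, 3 of them at p under 0.05 (5.8% of all genes). Their median was -0.08, from -0.135 without exGF-P3 to -0.04 without exGF-S4, and their summed level overlapped between all groups. Microglial and oligodendrocyte markers had medians of -0.08 and -0.09, with 1 of 13 and 0 of 12 negative at p under 0.05 (5.8% of all genes), from -0.21 without exGF-P1 to 0.03 without GF-S1 for the first and from -0.29 without exGF-S8 to 0.10 without GF-S2 for the second. All 10 meningeal markers were negative, with a median of -0.44 and 0 at p under 0.05. Excitatory neuron markers had a median of -0.22, from -0.37 without exGF-P3 to -0.08 without exGF-S8 and -0.05 without the rRNA-rich libraries, with 1 of 9 negative at p under 0.05 (5.8% of all genes). Markers of amygdala nuclei had a median of -0.19, from -0.32 without exGF-P4 to -0.04 without exGF-S8 and -0.38 without the rRNA-rich libraries, with 2 of 12 negative at p under 0.05 (5.8% of all genes). The summed levels of these 3 lists overlapped between all groups. The choroid plexus list had a median of 0.28, which became -2 without the 3 exGF-SI libraries highest in Ttr and -0.32 without the rRNA-rich ones. Ttr is itself in that list, and GF-S8 and GF-S12, also high in Ttr, were kept. Nothing is therefore read from the shift to -2. Striatal markers had a median of 0.42, and -0.04 without GF-P1.

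The difference also varied with properties of the genes, which were looked at after the values were seen. Among the 3197 genes of lowest GC content, from 28.7 to 43.5%, 324 were positive and 116 negative at p under 0.05, and among the 3196 genes between 51.2 and 55.3%, 108 and 231 were. Over all genes tested, 5.61% were positive and 5.8% negative. Long noncoding RNAs, together with transcripts that the annotation holds as unproven (TEC, a class awaiting experimental proof), had a median difference of 0.37 over 1313 genes. Protein-coding genes had -0.01 over 14131. At p under 0.05, 179 of the noncoding genes were positive and 12 negative, against 662 and 906 of the coding ones. In GF mice 107 noncoding genes fell and 7 rose (median -0.19), where 6.71% and 8.83% of all genes did. In exGF mice 41 rose and 14 fell (median 0.13), where 5.23% and 3.46% of all genes did.

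Each class of noncoding gene leaned the same way. The median was 0.20 over 314 lincRNAs, 0.19 over 314 antisense transcripts, 0.19 over 218 processed transcripts and 0.69 over 365 TEC genes, while 399 pseudogenes had 0.26. In the TEC class 331 of 365 differences were positive and 78 were positive at p under 0.05, with 2 negative (5.61% and 5.8% of all genes). The 713 noncoding genes whose exons overlap no other gene had a median of 0.47. Most noncoding genes were scarce, with a median level of 1.11 CPM, and the gap to coding genes narrowed with level. Among the genes at or below 1.91 CPM, noncoding genes had a median of 0.39 and coding genes 0.05. The medians were 0.36 and 0.02 up to 8.05 CPM, 0.16 and -0.01 up to 22.7 CPM, 0.12 and -0.03 up to 60.2 CPM, and 0.06 and -0.02 above, where 17 noncoding genes remained. The median over the 1313 genes stayed between 0.26 and 0.40 in all alternative fits, at 0.26 after correction for GC content and length and at 0.37 without the rRNA-rich libraries.

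The libraries behind this pattern overlapped. The median deviation of noncoding genes from their mean over the 28 libraries (log2 CPM) lay between 0.05 and 0.20 in naïve GF, between -0.29 and 0.28 in GF-SI, between -0.09 and 0.03 in naïve exGF and between -0.20 and 0.34 in exGF-SI. Every naïve GF library was above every naïve exGF library, while each tested group spanned both. For TEC genes the spread was wider, from -0.49 to 0.61 in GF-SI and from -0.59 to 0.76 in exGF-SI, with exGF-S9 lowest and exGF-S4 highest. Coding genes stayed between -0.02 and 0.02 throughout. They are most of the genes tested, and TMM scaling centres each library on the bulk of genes. Their narrow range is therefore largely set by the scaling, and nothing is read from it.

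**Figure D5:**
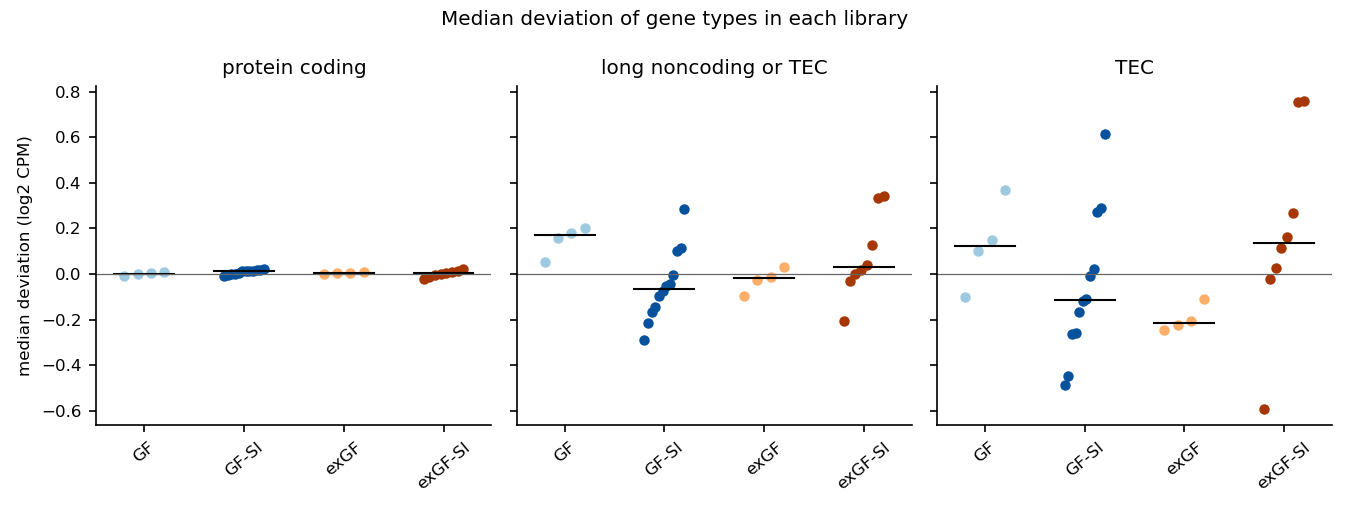
Median deviation of protein-coding genes, of all long noncoding and TEC genes, and of TEC genes alone from their mean over the 28 libraries (log2 CPM), one point per library, with the group median as a line. Coding genes stay near 0, which the scaling largely sets. The noncoding medians spread over a wider range within GF-SI and within exGF-SI than the group medians do.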

How the data were processed

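RNA-seq counts were analysed for 28 libraries of naïve and socially tested GF and exGF mice, with 12 libraries of conventional mice in the fit. Per the submitters' processing notes and methods, the authors trimmed ribodepleted paired reads with Trimmomatic 0.32, aligned them to GRCm38 with STAR 2.4.0f1 and counted them per gene in HTSeq 0.6.0, ignoring strand. The deposited values are raw counts, which keep ribosomal RNA and overlapping genes. The columns were matched to groups by name. Nothing states that libraries of a group came from independent batches, so p-values measure the spread between these samples.

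Counts were fitted in one model of 6 groups in edgeR 4.0.16 (R 4.3.3), with TMM scaling, the default filter on low counts, the quasi-likelihood test and Benjamini-Hochberg adjustment. A gene was called at an adjusted p under 0.1. DESeq2 1.42.0 and limma 3.58.1 served as alternatives, beside another scaling, no filter, a correction for GC content and length, omission of libraries with over 5% ribosomal RNA, and omission of single libraries. Symbols and positions were taken from GENCODE annotation of GRCm38. Named genes were the 12 of smallest p in each direction with a mean of at least 1 CPM, up to 3 of each gene list by smallest p, and genes the study discusses, and further members called in a response are given as examples of their list. The comparison, the members and the 46 lists were chosen with earlier results of these data known. The code was tested on simulated data. The values of 1 named gene are not reported here.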

Additional observations from a re-analysis of the deposited data

Results flagged for a closer look

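Of 387 groups of 4 to 10 libraries examined over the named genes, 31 held a single library far from the others relative to the range of its group, where chance alone gives about 1 in 20. All but 1 of them are given here. Values are TMM-scaled CPM.

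Among naïve GF libraries, GF-P4 was highest for Bhlhe40 (57.8), Crnkl1 (29.1), Dnajb5 (49.4) and D030028A08Rik (5.93). GF-P1 was highest for Camk2a (1270) and for the dopamine receptor gene Drd1 (27.4), and the same library had the highest sum of striatal markers. GF-P3 was lowest for Spry2 (12.4) and Ddit3 (8.64) and highest for Rps6ka5 (29.7). GF-P2 was highest for Crhr1 (12.7) and lowest for Dnajb6 (84.9).

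Among naïve exGF libraries, exGF-P1, the library with the most ribosomal RNA, was lowest for Chkb (7.59) and highest for Lcn2 (0.66) and Isg15 (1.32). exGF-P2 was lowest for Srsf1 (10.5). exGF-P3 was highest for Grm7 (106) and lowest for Gabra2 (78.9).

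Among exGF-SI libraries, exGF-S7 was highest for Rps16 (13.3), mt-Rnr2 (128000), mt-Rnr1 (37200) and Gm42418 (111000). exGF-S8 was highest for 5 genes, namely Klf9 (364), Srpk1 (93.7), Bdnf (117), Dnajb6 (160) and Ier5 (73.1). exGF-S10 was highest for Mx2 (1.77), and exGF-S5 for Hspa2 (66.8). exGF-S4 was lowest for Gjb6 (25.1) and highest for Snord17 (45.4).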

How the results depend on the processing

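Genes with a called response difference numbered 0 in edgeR, 43 in DESeq2 and 84 in voom, and 0 to 20 on omitting single libraries (20 without exGF-S5). Members of the 32 pathway lists called, marker lists left out, numbered 0, 4 in DESeq2, 6 in voom and 0 to 1 on omission. The GF response ranged from 1069 to 2872 calls on omission. The exGF response ranged from 533 to 1539 on omission, with 2608 in voom, 826 without a filter, 491 without the rRNA-rich libraries and 920 after GC and length correction. Naïve exGF against GF gave 1 to 8 on omission, 22 in DESeq2, 12 in voom, 0 without the rRNA-rich libraries, and 1 each with 28 libraries in the fit, RLE size factors, no filter, GC and length correction or without the 3 Ttr-high libraries (an alternative chosen after seeing the data). exGF-SI against GF-SI gave 7 to 383 on omission, 82 with 28 libraries, 333 in DESeq2, 233 in voom, 30 without a filter, 221 without the rRNA-rich libraries, 79 after GC and length correction and 74 without the Ttr-high libraries. The causes were not tested.

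Of 129 named genes, 123 kept their sign in all 36 alternatives. Without the rRNA-rich libraries the sign turned for Ier5 (0.274), Arc (0.604), C1qc (-0.0339) and C1qa (-0.00299). GC and length correction turned C1qa (-0.0102), voom turned D030028A08Rik (-0.301) and DESeq2 turned Egr3 (-0.00043). On omission Arc ranged from -0.587 to 0.16, D030028A08Rik from -0.63 to 0.56, C1qc from -0.0902 to 0.202, C1qa from -0.0175 to 0.106 and Egr3 from -0.14 to 0.217. No paired analysis was possible because the columns carry pool and animal numbers that could not be tied to the replicate numbers in the labels. Depth limits scarce genes most.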
